A study of Mus musculus with 2 samples.

Results

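The 55 genes described here encode transcription factors that pattern mesenchyme and the embryonic ducts from which the uterus and its neighbours form: T-box, paired box, homeobox, basic helix-loop-helix (bHLH), zinc finger, GATA, forkhead, Sox, EBF, NFI, Runt and bZIP factors. They were chosen from a list of such genes, with earlier results of these data known. All 55 were matched to RefSeq among 21631 protein-coding genes. Their chromatin loops were read from Hi-C, which joins and sequences DNA ends that lie close together in the nucleus. A loop is a pair of 10 kb stretches, its anchors, on 1 chromosome that were in contact more often than their surroundings. A loop was given to a gene when an end of the gene lay inside an anchor or within 5 kb of it. This selected 206 of 24131 loops in estrus and 230 of 26240 loops in diestrus.

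Both libraries came from the uteri of untreated, intact CD-1 mice, an outbred stock, aged 2 months, prepared with the Arima HiC kit. Estrus, the stage of the first library, follows the estrogen peak of the cycle and includes ovulation. Diestrus, the stage of the other, is dominated by progesterone from the corpus luteum. Each stage had 1 library, so no test between stages and no p-value was possible, and the spread between animals is unknown. Whole uterus holds epithelium, stroma, muscle and vessels, and the loop lists hold no expression values, so the tissue's markers could not be checked and no loop can be assigned to a cell type.

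These factors bind DNA through a conserved domain and switch on the programs of stroma, smooth muscle and duct epithelium, in the embryo and again in the adult uterus, where Msx1, Foxo1, Gata2 and others act in implantation and decidualization. Such developmental regulators often stand alone beside wide stretches without other genes, where distant enhancers lie. Loops between a promoter and such a stretch bring enhancer and gene together, and many are held by the DNA-binding protein CTCF and the ring-shaped cohesin complex.

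The promoters at 5 looped loci show the bases around start sites that lay in loop anchors, a small part of each 10 kb anchor. They are from RefSeq (GRCm38.p6) and run 5′ to 3′ from 250 bases before the start site to 50 bases after it, 300 bases in all. Capitals mark the core letters of the CTCF motif, searched only in the exact spelling AGGGGGC, on either strand. Sox4, Twist1, Foxc1 and Foxo1 are shown because nearly all of their loops left from the bin with the start site, and Foxp1 because a loop joined 2 of its start sites.
Sox4 (chr13:28953650-28953949, minus strand): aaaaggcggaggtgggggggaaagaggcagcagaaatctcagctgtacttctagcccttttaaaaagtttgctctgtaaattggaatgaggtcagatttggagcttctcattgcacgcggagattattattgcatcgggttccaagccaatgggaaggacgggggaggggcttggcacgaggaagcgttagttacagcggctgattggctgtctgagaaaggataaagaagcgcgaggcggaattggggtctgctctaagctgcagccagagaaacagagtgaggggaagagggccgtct
Twist1 (chr12:33957421-33957720, plus strand): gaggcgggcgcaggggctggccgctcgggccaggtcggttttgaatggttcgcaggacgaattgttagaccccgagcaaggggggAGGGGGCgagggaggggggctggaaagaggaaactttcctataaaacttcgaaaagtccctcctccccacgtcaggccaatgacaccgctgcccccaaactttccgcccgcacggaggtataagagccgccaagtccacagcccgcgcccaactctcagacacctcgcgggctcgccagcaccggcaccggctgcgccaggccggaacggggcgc
Foxc1 (chr13:31806396-31806695, plus strand): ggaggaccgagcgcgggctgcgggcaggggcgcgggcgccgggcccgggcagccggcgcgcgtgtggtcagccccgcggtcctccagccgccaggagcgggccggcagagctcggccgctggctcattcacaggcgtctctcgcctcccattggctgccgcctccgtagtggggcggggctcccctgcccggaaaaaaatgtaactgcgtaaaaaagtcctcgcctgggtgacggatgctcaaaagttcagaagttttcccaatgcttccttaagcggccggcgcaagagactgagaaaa
Foxo1 (chr3:52268087-52268386, plus strand): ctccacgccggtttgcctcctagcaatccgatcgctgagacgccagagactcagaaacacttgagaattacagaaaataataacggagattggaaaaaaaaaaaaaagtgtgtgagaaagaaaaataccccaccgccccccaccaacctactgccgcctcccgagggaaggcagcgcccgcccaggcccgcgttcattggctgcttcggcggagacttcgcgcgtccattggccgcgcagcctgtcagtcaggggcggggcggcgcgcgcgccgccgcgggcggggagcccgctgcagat
Foxp1 distal (chr6:99520944-99521243, minus strand): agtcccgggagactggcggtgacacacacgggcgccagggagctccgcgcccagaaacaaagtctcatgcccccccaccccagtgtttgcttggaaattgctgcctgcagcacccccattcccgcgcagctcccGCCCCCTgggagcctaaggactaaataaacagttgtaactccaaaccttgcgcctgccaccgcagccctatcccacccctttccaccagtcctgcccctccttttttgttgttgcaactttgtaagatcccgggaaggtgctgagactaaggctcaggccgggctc
Foxp1 internal (chr6:99028249-99028548, minus strand): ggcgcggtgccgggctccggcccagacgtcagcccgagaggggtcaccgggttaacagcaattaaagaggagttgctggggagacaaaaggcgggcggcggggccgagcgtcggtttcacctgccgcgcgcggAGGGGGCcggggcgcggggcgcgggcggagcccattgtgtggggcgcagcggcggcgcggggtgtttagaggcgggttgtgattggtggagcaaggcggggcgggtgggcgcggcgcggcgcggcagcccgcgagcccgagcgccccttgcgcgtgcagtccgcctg

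The Sox4 start site lay in the anchor of 11 of its 14 loops in estrus and 11 of 12 in diestrus. For Twist1 this held for 5 of 5 loops in estrus and 7 of 7 in diestrus, and its window held the CTCF core at base 86. The Foxc1 window, with 32 CpG dinucleotides, and the Foxo1 window, with 31, held no match to the core. The Foxo1 start site was in the anchor of 6 of 7 loops in estrus and 6 of 6 in diestrus. The distal start site of Foxp1 lay in the anchor of all 6 loops in estrus and all 4 in diestrus, and the core was at base 135 of its window. The internal Foxp1 start site lay in the other anchor of 1 of those loops in each library, with the core at base 134.

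In all, 34 of the 55 genes had a promoter in the table, with 46 windows. The core was in 23.9% of them (11 of 46), against 12.9% of 21263 windows of protein-coding genes. Their median GC content was 61.2%, against 56.3% for protein-coding genes, and their median number of CpG dinucleotides was 21.5, against 13. The part of base composition in the share with the G-rich core was not tested. The full palindrome of the estrogen response element, GGTCANNNTGACC, was in 0 of 46 windows and in 0.0517% of the protein-coding windows. A match to letters is not a bound site, and no match says only that these letters are not in these windows. Where the strand was known, 58 loops in estrus and 62 in diestrus left from the start of the gene alone. A further 56 in estrus and 57 in diestrus had both ends of a short gene at the anchor. From the 3′ end alone left 12 in estrus and 10 in diestrus. These 3 groups were not counted over all protein-coding genes, so they cannot be called particular to the factor genes.

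Most of the factor genes had several loops in each stage. In estrus 47 of 55 had at least 1 loop (85.5%), against 49.4% of all protein-coding genes, and in diestrus 50 of 55 (90.9%), against 50.8%. At least 6 loops were present at 14 factor genes in estrus (25.5%), against 2.23% of all protein-coding genes, and at 15 in diestrus (27.3%), against 2.46%. The median factor gene had 3 loops in estrus and 4 in diestrus, and the median protein-coding gene had 0 in estrus and 1 in diestrus. Among genes with any loop, the medians were 4 in both stages for the factors and 2 in both for all protein-coding genes. The 55 were chosen with earlier results of these data known, and the part of that choice in these differences was not tested. Maf and Sox4 led the list, and Sox17, Tbx4, Tbx5 and Runx2 had no loop in either library.

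**Figure D1:**
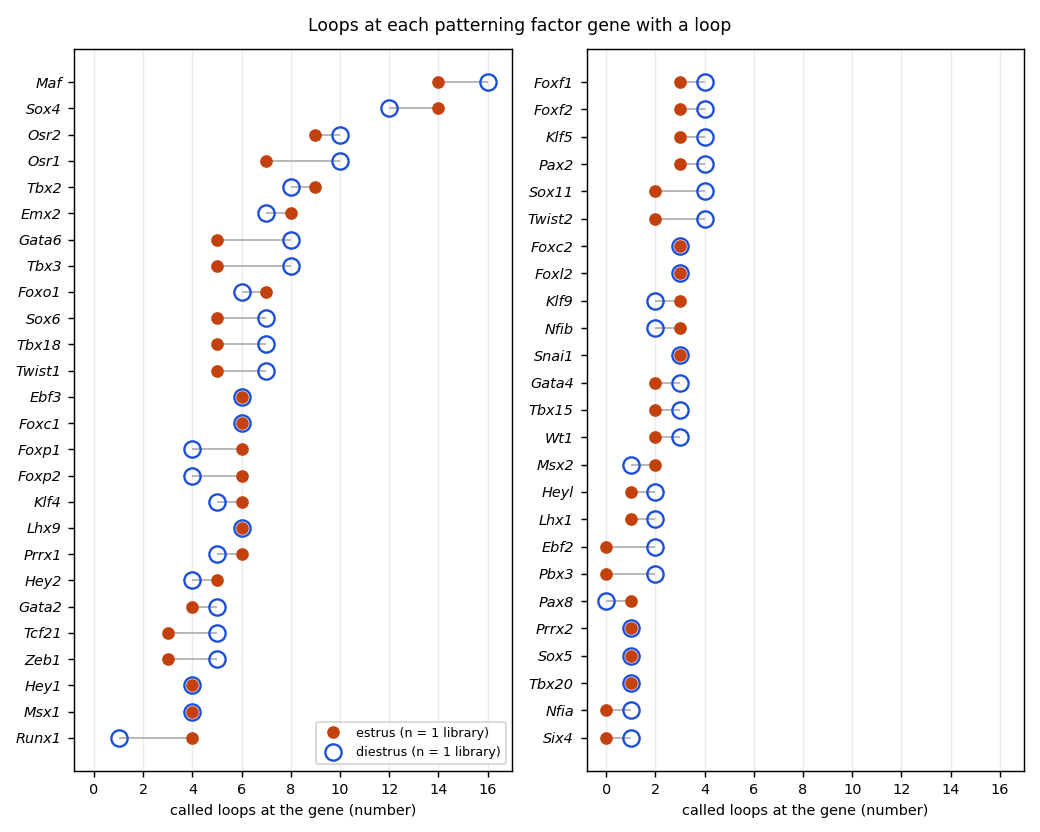
Number of called loops (horizontal axis) at each of the 51 factor genes with a loop, with filled points for estrus and open points for diestrus (n = 1 library each). Maf stands at 14 in estrus and 16 in diestrus and Sox4 at 14 in estrus and 12 in diestrus, and the 4 genes without a loop are not drawn.

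The loops of these genes were long. Their median length was 340 kb in estrus (95% interval 280 to 420) and 365 kb in diestrus (310 to 420), against 200 kb in estrus and 210 kb in diestrus for loops at protein-coding genes. Longer than 800 kb were 14.6% in estrus (30 of 206, 10% to 20.1%) and 14.3% in diestrus (33 of 230, 10.1% to 19.6%). For loops at protein-coding genes these shares were 8.6% in estrus and 8.78% in diestrus. Over all loops they were 12% in estrus and 12.1% in diestrus, within the intervals of the factor genes. The median length over all loops was 230 kb in estrus and 240 kb in diestrus. Strength, the observed contacts divided by those expected from the ring of surrounding pixels (the donut), had a median of 3.29 in estrus (3.05 to 3.61) and 3.11 in diestrus (2.87 to 3.44). The medians for loops at protein-coding genes were 3.35 in estrus and 3.26 in diestrus. The loops at the factor genes thus differed in median length from loops at protein-coding genes, while the intervals of their strength included the wider medians. For contacts and for ratios of contacts, the intervals cover counting error only. The read pairs carry no molecular identifiers, so they cannot be assumed to be independent molecules. The intervals of medians and shares treat the listed loops as independent draws, and the spread between animals enters none of them.

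Far anchors in gene deserts were common. A desert is here a gap of at least 500 kb between neighbouring protein-coding genes that holds the whole far anchor. Of the loops at the factor genes, 32.5% in estrus (67 of 206, 26.2% to 39.4%) and 33% in diestrus (76 of 230, 27% to 39.5%) ended in a desert. Counted as pairs of a gene and a loop over all protein-coding genes, the shares were 7.23% in estrus and 7.7% in diestrus. Loops into deserts had a median length of 490 kb in both stages, against 280 kb in estrus and 310 kb in diestrus for the others. They were found again in the other library for 83.6% in estrus and 75% in diestrus, against 80% in estrus and 76% in diestrus for the others, with intervals that overlapped widely. In all, 87% of pairs of a factor gene and a loop in estrus and 84.8% in diestrus had no end of another protein-coding gene at the far anchor, against 51.1% in estrus and 51.2% in diestrus over all protein-coding genes.

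The genes themselves lie beside wide gaps. The larger of the gaps flanking a factor gene had a median of 256 kb, against 35.2 kb for all protein-coding genes, and it reached 500 kb at 18 of 55 factor genes (32.7%), against 5.93%. Loops led to the side of the larger gap in 69.8% of pairs in estrus (143 of 205) and 67.8% in diestrus (156 of 230), against 54.6% in estrus and 54.8% in diestrus over all protein-coding genes. Factor genes with a gap of at least 500 kb had a median of 5 loops in estrus and 4.5 in diestrus, and those without had 3 in estrus and 4 in diestrus. Gap size therefore ordered the number of loops only weakly: across the 55 genes, which differ in length and share both libraries, Spearman's rho was 0.18 in estrus and 0.19 in diestrus.

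**Figure D2:**
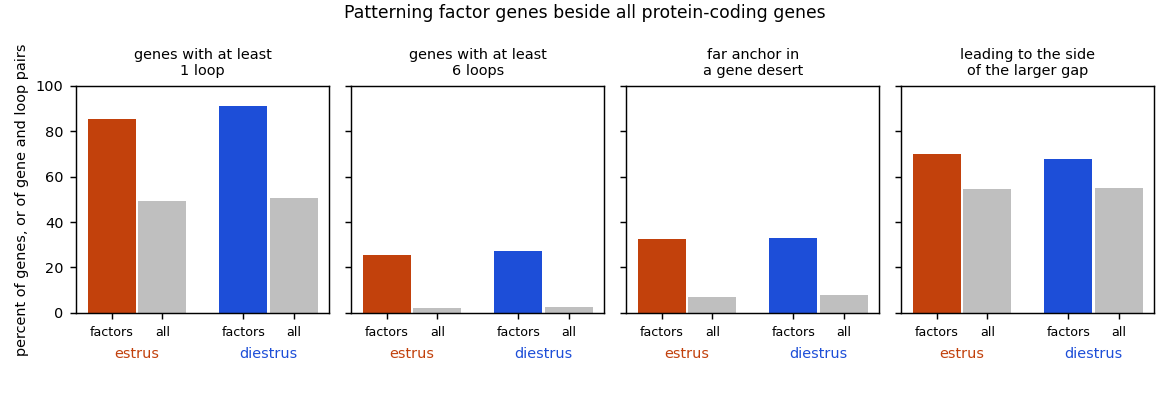
Percent of genes (both panels on the left) or of pairs of a gene and a loop (both panels on the right) for the 55 factor genes beside all 21631 protein-coding genes, in estrus and diestrus (n = 1 library each). The share of genes with at least 6 loops is 25.5% in estrus and 27.3% in diestrus for the factors and 2.23% in estrus and 2.46% in diestrus for all genes.

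Loops at a factor gene were mostly nested. Of the 206 loops in estrus 66.5% (59.6% to 72.9%), and of the 230 in diestrus 67.8% (61.4% to 73.8%), lay inside a longer loop of the set. Counted as pairs of a gene and a loop, 66.2% in estrus and 67.8% in diestrus lay inside a longer loop of the same gene, against 44.8% in estrus and 45.5% in diestrus over all protein-coding genes, which have fewer loops each. Inside any listed loop lay 97.6% in estrus and 97.4% in diestrus, against 92.1% in estrus and 94.5% in diestrus of all loops. Most of the loops inside a longer loop of the set shared an anchor with it. With no common anchor allowed, 14.6% in estrus and 20% in diestrus were nested within the set. The longest chain of loops, each inside the next, had 7 loops in estrus and 9 in diestrus at Maf, 5 in estrus and 8 in diestrus at Osr1 and at Tbx3, 7 in both at Sox4, and 7 in estrus and 6 in diestrus at Emx2 and at Foxo1.

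**Figure D3:**
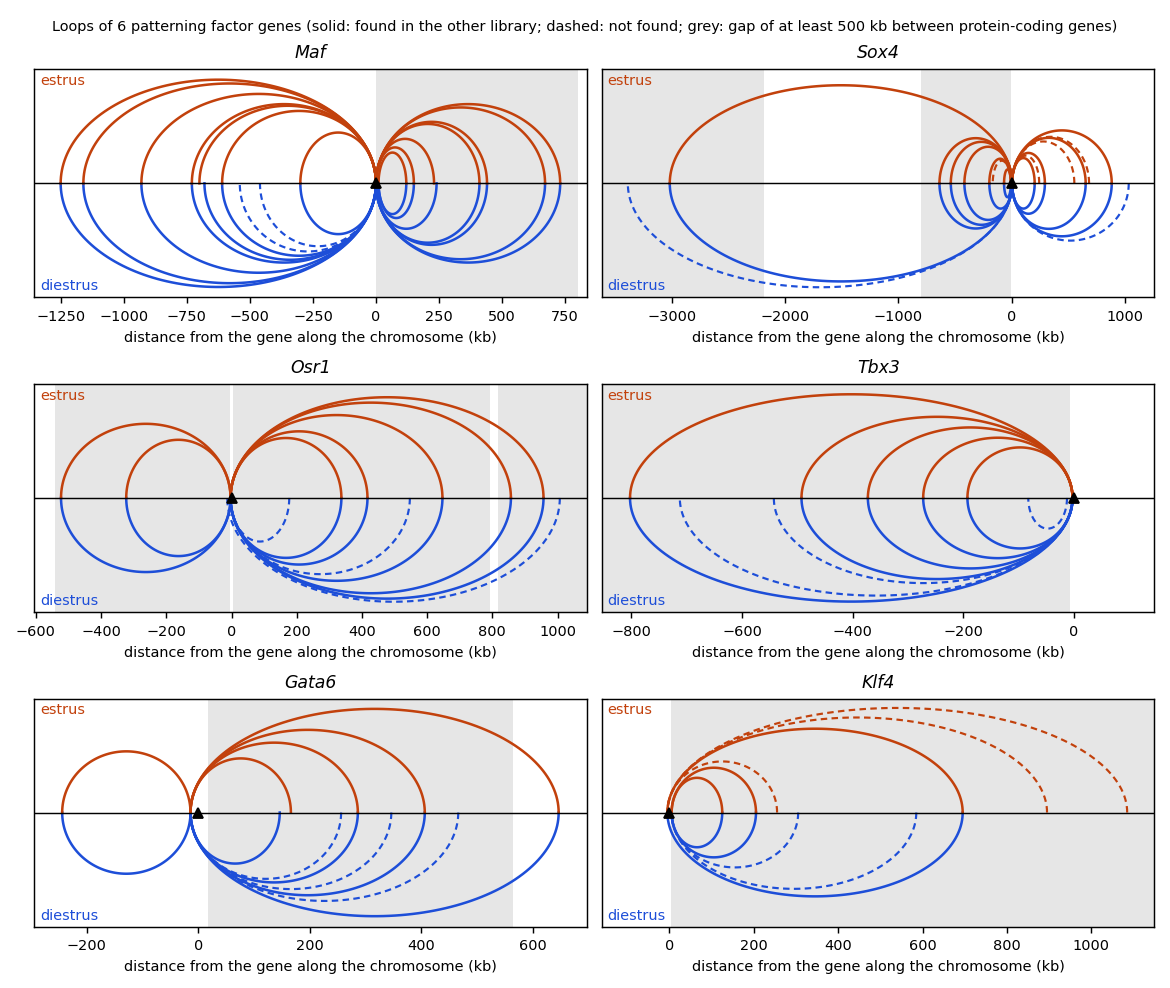
Loops of 6 factor genes with far anchors in deserts, drawn as arcs by distance from the gene in kb (triangle, at 0), with estrus above the line and diestrus below it (n = 1 library each). Solid arcs were found in the other library and dashed arcs were not, and grey marks gaps of at least 500 kb, such as the 905 kb beside Tbx3 that held the far anchor of all 5 of its loops in estrus and all 8 in diestrus.

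Among the T-box genes, which encode activators and repressors of limb, heart and duct patterning, Tbx2 and Tbx3 were rich in loops while their neighbours on the same chromosomes, Tbx4 and Tbx5, had none. The 7 genes had 22 loops in estrus and 27 in diestrus. Tbx3 (chr5:119670534-119684724) had 5 loops in estrus and 8 in diestrus, all toward lower coordinates into the 905 kb gap between Med13l and Tbx3 and none toward Tbx5. Its 800 kb loop held 706 contacts in estrus (655 to 760) and 1032 in diestrus (970 to 1097), at a strength of 9.64 in estrus and 10.4 in diestrus. The intervals of the contacts did not overlap, yet the log2 ratio of strength, centred over all shared loops to allow for depth, was -0.12 (-0.26 to 0.02). The expected contacts there were 73.2 in estrus and 99.2 in diestrus. The 3 diestrus loops of Tbx3 without a counterpart were weak, with strengths of 2.22 at 70 kb, 2.44 at 540 kb and 2.04 at 710 kb.

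Tbx2 (chr11:85832615-85841948) had 9 loops in estrus and 8 in diestrus, none in a desert. The strongest, of 330 kb, held 357 contacts at 13.4 times the expected number in estrus and 374 at 13 times in diestrus. An estrus loop of 1310 kb joined the anchors of Tbx2 and Lhx1, a LIM-homeobox gene needed to form the Müllerian duct, with 19 contacts (11.4 to 29.7) at a strength of 5.41 and a largest q-value of 0.0107. It was the only loop in either list that joined ends of 2 of the 55 genes, and it had no counterpart in diestrus. Tbx18, a marker of the mesenchyme around the ureter and of other mesenchyme, had 5 loops in estrus and 7 in diestrus, with 3 in both stages ending in the 596 kb gap between Tbx18 and Nt5e. From the Tbx18 anchor (chr9:87730001-87740000) a loop of 3650 kb in estrus, with 18 contacts (10.7 to 28.4), and of 3630 kb in diestrus, with 23 contacts (14.6 to 34.5), led to Zic4, a zinc finger gene. Tbx15, a gene of limb and trunk mesenchyme, had 2 loops in estrus and 3 in diestrus, and Tbx20, known from the heart, had 1 in each.

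The genes of duct formation varied widely. Emx2 (chr19:59458690-59465357), a homeobox gene without which the mouse urogenital tract does not form, had 8 loops in estrus and 7 in diestrus. A loop of 680 kb with 621 contacts at a strength of 8.18 in estrus lay beside 1 of 690 kb with 803 contacts at 7.87 in diestrus. Its loop of 480 kb to Rab11fip2 held 369 contacts in estrus and 513 in diestrus. Both Pax2 and Pax8, paired box genes of the duct epithelium, had few loops, with 3 in estrus and 4 in diestrus at Pax2 and 1 in estrus and 0 in diestrus at Pax8. The Pax8 loop of 60 kb held 239 contacts at a strength of 2.38. Lhx1 had 1 loop in estrus and 2 in diestrus, none in common. Lhx9, a gene of gonad formation, had 6 loops in both stages, of which the 320 kb loop held 259 contacts in estrus and 269 in diestrus.

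Of the other homeobox genes, Msx1 and Msx2 encode repressors that prepare the uterus for implantation. Msx1 had 4 loops in both stages. Its 260 kb loop, at the same bins in both libraries, held 422 contacts at a strength of 6.92 in estrus and 322 at 5.09 in diestrus, a centred log2 ratio of 0.43 (0.22 to 0.64). Msx2 had 2 loops in estrus and 1 in diestrus, all in the 578 kb gap between Msx2 and Drd1. Its estrus loop of 220 kb held 237 contacts at a strength of 5.84. It was paired with a diestrus loop of 240 kb, with 190 contacts at 6.28, that was not counted at the gene. Prrx1, a gene of limb and face mesenchyme, had 6 loops in estrus and 5 in diestrus, and Prrx2 had 1 in each, of 50 kb, to Ptges, the gene of a prostaglandin E synthase. Six4, with 0 loops in estrus and 1 in diestrus, and Pbx3, a cofactor of homeobox proteins, with 0 in estrus and 2 in diestrus, were among 4 genes with loops in diestrus alone. The strengths of those 3 loops ran from 1.85 to 2.66, below the diestrus median of 3.11.

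The bHLH genes all had a loop in both stages, with 20 loops in estrus and 26 in diestrus, and 0 of them ended in a desert. Twist1 (chr12:33957671-33959831), a regulator of mesenchyme and of the epithelial to mesenchymal transition, had 5 loops in estrus, all found in diestrus, and 7 in diestrus. The added diestrus loops spanned 120 kb, with a strength of 2.13, and 1240 kb, with 27 contacts at a strength of 3.23. Twist2, which acts in uterine stroma, had 2 loops in estrus and 4 in diestrus, and Tcf21, a marker of mesenchymal progenitors, had 3 in estrus and 5 in diestrus. Of the Notch targets, Hey1 had 4 loops in both stages, Hey2 had 5 in estrus and 4 in diestrus, and Heyl had 1 in estrus and 2 in diestrus. The Hey2 loop of 470 kb was among the strongest of the set, with 571 contacts at a strength of 15.5 in estrus and 522 at 13.6 in diestrus.

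The zinc finger genes Osr1 and Osr2 are paralogs that mark intermediate and other mesoderm, and their loops ran into different surroundings. Osr1 (chr12:9574442-9581500) had 7 loops in estrus and 10 in diestrus, and each ended in 1 of 3 deserts, of 538 kb, 788 kb and 695 kb. Osr2 (chr15:35296098-35303305) had 9 loops in estrus and 10 in diestrus, and none ended in a desert. All 7 estrus loops of Osr1 and all 9 of Osr2 were found in diestrus. The Osr1 loop of 650 kb held 268 contacts at a strength of 7.6 in estrus and 290 at 6.34 in diestrus, and the Osr2 loop of 850 kb held 278 at 7.42 in estrus and 319 at 7.47 in diestrus. Within Osr1, same-position loops differed in direction: the 860 kb loop had a centred log2 ratio of 0.39 (0.10 to 0.67) and the 420 kb loop, with 121 contacts in estrus and 240 in diestrus, of -0.53 (-0.85 to -0.21).

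Of the Krüppel-like factors, Klf4 (chr4:55527137-55532475), a regulator of epithelial differentiation, had 6 loops in estrus and 5 in diestrus. All of them ended in the 1208 kb gap between Klf4 and Actl7b, the widest gap beside any of the 55 genes. Only 3 of these loops, of 120 kb, 200 kb and 700 kb, were common to both libraries, and the estrus loops of 900 kb and 1090 kb had strengths of 2.86 and 2.17. Klf5, needed in uterine epithelium for implantation, had 3 loops in estrus and 4 in diestrus, and Klf9, a partner of the progesterone receptor, had 3 in estrus and 2 in diestrus. Snai1, a repressor of epithelial genes, had 3 loops in both stages, and Zeb1, another such repressor, had 3 in estrus and 5 in diestrus. Wt1, a regulator of kidney, gonad and stroma, had 2 loops in estrus and 3 in diestrus, and the added diestrus loop of 540 kb led to Pax6, with 28 contacts (18.6 to 40.5) at a strength of 3.45 and a largest q-value of 0.0414.

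Each of the GATA genes had more loops in diestrus, with 11 in estrus and 16 in diestrus over the 3. Gata6 (chr18:11052510-11085636), which acts in endoderm, heart and gonad, had 5 loops in estrus, all found in diestrus, and 8 in diestrus. The 3 added diestrus loops of Gata6 spanned 270 kb, 360 kb and 480 kb into the 548 kb gap between Gata6 and Rbbp8, at strengths of 2.08, 2.09 and 2.73. Its strongest loop, of 300 kb, held 356 contacts at 6.29 times the expected number in estrus and 413 at 6.47 times in diestrus. Gata2, a partner of the progesterone receptor in the uterus, had 4 loops in estrus and 5 in diestrus. Gata4, a paralog of Gata6, had 2 in estrus and 3 in diestrus. Its 120 kb loop was strong, with 942 contacts at a strength of 12.7 in estrus and 888 at 12.2 in diestrus. The third diestrus loop of Gata4, of 270 kb with 39 contacts at a strength of 3.46, was paired with an estrus loop of 260 kb with 45 contacts that lay too far from the gene's end to be counted. With gene ends strictly inside an anchor Gata4 had 1 loop in both stages and Gata2 had 3 in both.

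The forkhead genes, with 37 loops in estrus and 34 in diestrus, and the Runt genes, with 4 in estrus and 1 in diestrus, were the families with more loops in estrus. On chromosome 8 Foxf1 (chr8:121084386-121088154) and Foxc2 (chr8:121116171-121118895), and on chromosome 13 Foxf2 (chr13:31625816-31631406) and Foxc1 (chr13:31806646-31810635), form paralogous pairs that act in lung and gut mesenchyme and in vessels. At both sites the loops ran outward. Those of Foxf1 (3 in estrus, 4 in diestrus) and Foxf2 (3 in estrus, 4 in diestrus) all led toward lower coordinates. Those of Foxc2 (3 in each stage) and Foxc1 (6 in each stage) all led toward higher ones. Every diestrus loop of Foxf1 and Foxf2 had an estrus counterpart. The Foxf2 diestrus loops of 420 kb and 540 kb were paired with estrus loops of 410 kb and 530 kb that were not counted at the gene. The strongest loop of all 55 genes in estrus was that of Foxf1 over 270 kb, with 229 contacts at a strength of 16.9 in estrus and 232 at 13.4 in diestrus. Foxc2 had a loop of 400 kb with 482 contacts at a strength of 13.2 in estrus and 443 at 11.5 in diestrus.

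Foxo1 (chr3:52268337-52350109), a factor of the decidual response, had 7 loops in estrus and 6 in diestrus. The 632 kb gap between Foxo1 and Cog6 held the far anchor of 6 of them in each stage, and 5 were at the same bins in both libraries. Foxp1 and Foxp2, long genes for repressors, each had 6 loops in estrus and 4 in diestrus. The loops of Foxp1 (chr6:98925342-99522746) left from its distal start site, and most ended within the gene, which is 597 kb long. Its 500 kb loop ran to the internal start site shown above, with 83 contacts (66.1 to 103) in estrus and 154 (131 to 180) in diestrus, a centred log2 ratio of -0.55 (-0.95 to -0.16). A 1000 kb loop of Foxp1 reached the 583 kb gap beyond the gene, with 83 contacts in estrus and 115 in diestrus. The Foxp2 loops of 1330 kb and 1900 kb ended in the 1029 kb gap between Mdfic and Tfec, in both stages. Foxl2, a factor of ovarian and uterine differentiation, had 3 loops in each stage.

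Among the Sox genes, Sox4 (chr13:28948919-28953699), a factor of progenitor cells, had 14 loops in estrus and 12 in diestrus, of which 10 in estrus were found in diestrus. They ran to both sides. Its loop of 880 kb held 384 contacts (347 to 424) in estrus and 453 (412 to 497) in diestrus, at a strength of 12.6 in both. Another, of 3020 kb, ended in a 1498 kb desert between Nrsn1 and Hdgfl1, with 46 contacts (33.7 to 61.4) in estrus and 66 (51 to 84) in diestrus, and a diestrus loop of 3390 kb ended in the same desert with 36 contacts. The 4 estrus loops without a counterpart spanned 160 kb to 680 kb at strengths of 2.61 to 3.97. Sox11, its paralog, had 2 loops in estrus and 4 in diestrus, between gaps of 854 kb and 1095 kb. Sox6 (chr7:115470872-116040776), a gene of cartilage and muscle that is 570 kb long, had 5 loops in estrus, all found in diestrus, and 7 in diestrus. The 5 common loops spanned the gene from its start and ended beyond its 3′ end, in the 620 kb gap between Insc and Sox6, and the strongest, of 820 kb, held 288 contacts at 8.68 times the expected number in estrus and 369 at 8.67 times in diestrus. Sox5, its close paralog and longer at 954 kb, had 1 loop in each stage, with a strength of 1.82 in estrus and 1.95 in diestrus.

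Of the remaining genes, Maf (chr8:115703253-115706894), for a large bZIP factor known from lens and immune cells, had most loops, with 14 in estrus and 16 in diestrus. From 1 bin at the gene 13 of the estrus loops left. To the right, 7 in each stage ended in the 798 kb gap between Maf and Dynlrb2, and to the left 7 in estrus and 9 in diestrus ran up to 1250 kb. All 14 estrus loops of Maf were found in diestrus. Even so, single loops differed: the 930 kb loop held 126 contacts (105 to 150) in estrus and 259 (228 to 293) in diestrus, at a strength of 5.86 in estrus and 8.84 in diestrus. That is a centred log2 ratio of -0.61 (-0.93 to -0.30), and the 730 kb loop into the gap had -0.53 (-0.83 to -0.24). Ebf3 (chr7:137193671-137322805), for a factor of muscle and mesenchyme, had 6 loops in both stages. The 1178 kb gap between Mki67 and Mgmt, which lies beyond the neighbouring gene, held the far anchor of 6 loops of Ebf3 in estrus and 5 in diestrus. Those of 830 kb (178 contacts in estrus, 230 in diestrus) and 1490 kb (111 in estrus, 113 in diestrus) had strengths above 7 in both stages.

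Ebf2, known from brown fat and bone, had 0 loops in estrus and 2 in diestrus, of which the loop of 3990 kb, the longest of the set, held 20 contacts (12.2 to 30.9) at 9.53 times an expected number of 2.1. Its far anchor (chr14:63240001-63250000) lay inside Gata4 (chr14:63198914-63271712), away from the ends of that gene. Of the 2 diestrus loops of Ebf2, 1 had an estrus counterpart that was not counted at the gene. Counting loops at any position along the gene, Ebf2 had 6 loops in estrus and 7 in diestrus. Runx1, a blood and mesenchyme regulator, had 4 loops in estrus and 1 in diestrus, and Runx2, the bone regulator, had none. The 3 estrus loops of Runx1 without a counterpart had strengths of 2.39, 3.07 and 2.92, and along its whole length Runx1 had 10 loops in estrus and 8 in diestrus. Of the nuclear factor I genes, Nfia had 0 loops in estrus and 1 in diestrus, and Nfib had 3 in estrus and 2 in diestrus. Nfia, 541 kb long, had 21 loops in estrus and 27 in diestrus when any base of the gene was counted.

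Between the stages, more factor genes had more loops in diestrus than in estrus in the lists as deposited. With lists of equal length the numbers were 19 with more in estrus and 20 with more in diestrus. Over all protein-coding genes with a loop, the shares at equal length were 32.1% with more in estrus and 26.2% with more in diestrus. As deposited, 14 of the 51 with a loop had more in estrus (27.5%), against 25.6% of all protein-coding genes with a loop. In diestrus 26 had more (51%), against 31.5%, and the other 11 had equal numbers. At Foxf1, Foxf2, Gata4 and Heyl, among the 26, every diestrus loop had an estrus counterpart. At Msx2, among the 14, every estrus loop had a diestrus counterpart. A difference of at least 2 loops was present at 4 genes with more in estrus (7.84%), against 4.29%, namely Foxp1, Foxp2, Runx1 and Sox4. With at least 2 more in diestrus there were 13 (25.5%), against 7.11%, namely Ebf2, Gata6, Maf, Osr1, Pbx3, Sox6, Sox11, Tbx3, Tbx18, Tcf21, Twist1, Twist2 and Zeb1. The factor genes also had more loops than most genes, as given above, and the part of this in the shares that differ by 2 was not tested. The total ratio, 206 loops in estrus over 230 in diestrus, was 0.896, close to the 0.92 for all loops. The contacts at all listed loops were 4153485 in estrus and 4533525 in diestrus.

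When only the strongest 24131 diestrus loops were kept, as many as in estrus, the factor genes had 206 loops in estrus and 204 in diestrus. More loops were then present in estrus at 19 genes (38%), against 32.1% of all protein-coding genes with a loop, and in diestrus at 20 (40%), against 26.2%. At least 2 more were present in estrus at 8 (16%), against 6.19%, and in diestrus at 7 (14%), against 5.33%. Of the 13 genes above, 7 still had at least 2 more in diestrus, while the difference was 1 loop at Gata6, Pbx3, Tcf21, Twist1, Twist2 and Zeb1. This shortening removes weak loops from the diestrus list alone.

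Under 5 other ways of counting, this one included, a difference of at least 2 was kept throughout by 1 of the 4 genes with more in estrus and 2 of the 13 with more in diestrus. Any difference in the same direction was kept by 3 of the 4 (Foxp1, Runx1, Sox4) and 10 of the 13. With a stricter q-value, Foxp2 had 4 loops in both stages, Sox11 had 2 in both and Tbx18 had 5 in both. With gene ends strictly inside an anchor, Sox6 had 0 in both.

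Most loops of the factor genes were called in both stages. Of the estrus loops 81.6% (75.6% to 86.6%; 168 of 206) had a diestrus loop with both anchors within 10 kb. Of the diestrus loops 75.7% (69.6% to 81.1%; 174 of 230) had one in estrus. That distance is the gap between the nearest edges of the anchors, so the starts of paired anchors could lie more than 10 kb apart. The loops without a counterpart were 38 of 206 in estrus, against 19.2% of all estrus loops. In diestrus they were 56 of 230, against 25.6% of all diestrus loops. Those shares lie close to the background. Loops without a counterpart were weaker: their median strength was 2.61 (2.39 to 3.07) in estrus and 2.46 (2.28 to 2.64) in diestrus, against 3.49 (3.23 to 3.82) in estrus and 3.48 (3.21 to 3.66) in diestrus for loops with one. Their q-values lay nearer the caller's limit, with a median of the largest q-value of 1.21e-04 in estrus and 1.99e-04 in diestrus, against 7.32e-13 in estrus and 3.76e-13 in diestrus. The same held over all loops, with median strengths in estrus of 2.57 without a counterpart and 3.74 with one. In diestrus these were 2.56 and 3.68. Only called loops are listed, so a missing loop does not mean missing contacts.

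**Figure D4:**
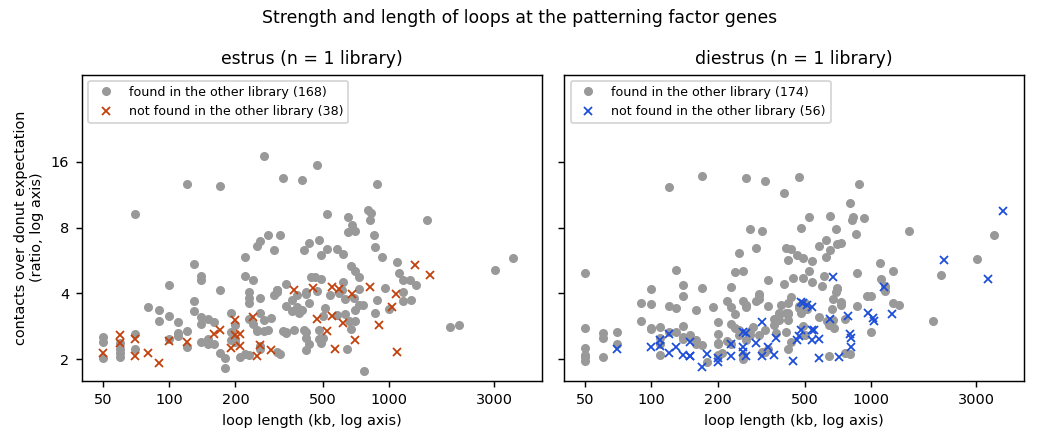
Strength (contacts over donut expectation, log axis) against length in kb (log axis) of each loop at a factor gene, with estrus left and diestrus right (n = 1 library each). Crosses mark the 38 estrus and 56 diestrus loops without a counterpart, whose median strengths were 2.61 in estrus and 2.46 in diestrus, and circles the 168 and 174 loops with one.

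The strength of loops present in both stages was much alike. In 174 pairs of nearest loops the median centred log2 ratio, estrus over diestrus, was 0.00 (-0.05 to 0.04), with an SD over pairs of 0.28, against 0.26 over all pairs of the series; 87 pairs lay above 0 and 87 below. More than 1.5-fold stronger in estrus were 5 of the 174 pairs, against 1.64% of all pairs of the series, and in diestrus 3 of 174, against 1.56%. The 5 were at Msx1, Foxc1, Snai1, Foxf2 and Heyl, and each compared loops at different bins. At Msx1, for example, a 140 kb loop in estrus with 185 contacts at a strength of 4.61 was paired with a 110 kb loop in diestrus with 189 at 2.1, a centred log2 ratio of 1.12 (0.82 to 1.42). At Snai1 a 70 kb loop with 757 contacts in estrus was paired with 1 of 50 kb with 954 in diestrus (0.88, 0.74 to 1.02). The pairs at Foxc1 (810 kb in estrus, 800 kb in diestrus), Foxf2 (630 kb in estrus, 640 kb in diestrus) and Heyl (50 kb in both) had ratios of 0.98, 0.62 and 0.59. The estrus loops of the Foxc1 and Heyl pairs left from bins more than 5 kb from an end of the gene and are not among the loops counted there. The lowest ratio of all was also at Foxc1, where a loop of 880 kb with 136 contacts in estrus and 1 of 890 kb with 150 in diestrus gave -0.88 (-1.22 to -0.53). That diestrus loop likewise is not among those counted at Foxc1.

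At identical bins there were 147 pairs, and 0 of them were over 1.5-fold stronger in estrus, against 0.677% of all such pairs, and 2 in diestrus, against 0.733%. These were the 2080 kb loop of Foxp2, with 36 contacts (25.2 to 49.8) in estrus and 62 (47.5 to 79.5) in diestrus (-0.78, -1.41 to -0.16), and the 930 kb loop of Maf. Intervals above 0 were present at 7 of the 147, against 4.89% of all such pairs, and below 0 at 16, against 5.95%. The highest ratios at identical bins were those of the 670 kb loop of Sox6 (0.48, 0.14 to 0.83) and the 260 kb loop of Msx1. The lowest, besides Foxp2, Maf and Foxp1, were at the 420 kb loop of Osr1 and the 190 kb loop of Tbx3, with 112 contacts in estrus and 198 in diestrus (-0.50, -0.85 to -0.16).

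**Figure D5:**
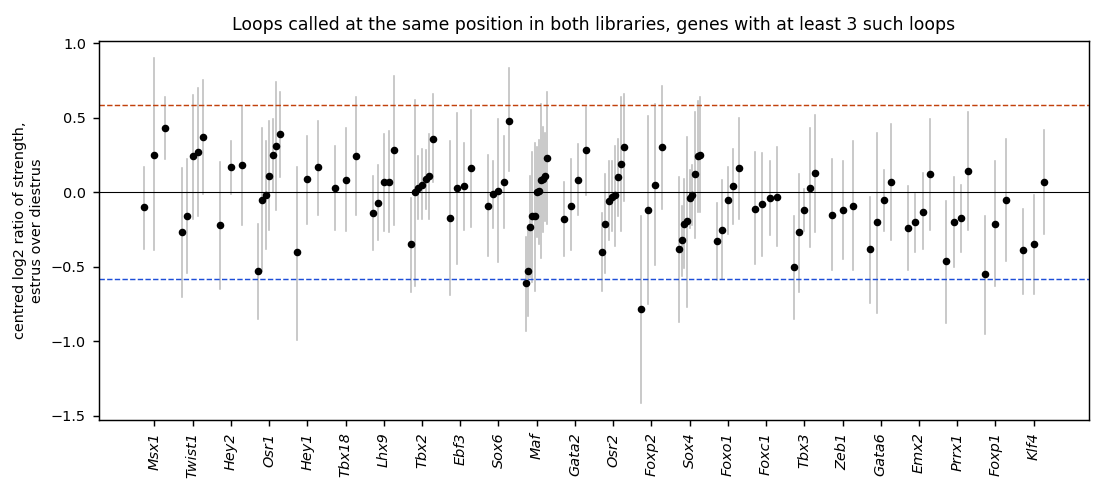
Ratio of strength, estrus over diestrus, as centred log2 values for each loop called at identical bins in both libraries, at factor genes with at least 3 such loops (points; lines are 95% counting intervals; n = 1 library each). Dashed lines mark 1.5-fold, which the Foxp2 loop of 2080 kb and the Maf loop of 930 kb pass on the diestrus side, and most genes have loops on both sides of 0.

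Related genes of the same families outside the 55 gave a measure of what is common to such factors. Of 93 relatives, 59 had a loop in estrus (63.4%) and 67 in diestrus (72%), with a median of 1 loop in both stages, and 11 had at least 6 loops in each stage (11.8%). The numbers were above those of all protein-coding genes and below those of the 55. Both lists were chosen with earlier results of these data known, and the part of that choice in this order was not tested. In diestrus 30 had more loops, in estrus 12, and 28 had equal numbers, while 23 had no loop in either library. Of all protein-coding genes with a loop, 31.5% had more in diestrus and 25.6% had more in estrus. The counts of the relatives were not repeated with lists of equal length. Among the relatives with the most loops were Zeb2, with 16 in estrus and 18 in diestrus, and Snai2, with 13 in estrus and 11 in diestrus. Ebf1, with 11 in estrus and 14 in diestrus, was another. Zeb2 had more loops in both stages than any of the 55 genes, where the largest numbers were 14 in estrus and 16 in diestrus.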

How the data were processed

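Hi-C loops were analysed in 1 estrus and 1 diestrus uterus library, grouped by the stage in their labels. The submitters' processing notes name Juicer and mm10; the caller's settings, the versions and the aligner were not given in the sources used here. Per the file headers, the deposited lists have the columns of HiCCUPS, Juicer's loop caller. Observed contacts and merged pixels are raw counts made by the authors. The expected contacts of 4 neighbourhoods are a signal on the scale of the raw contacts, computed by the authors' caller. The q-values (adjusted p-values) are those of the authors' caller, at most 0.0991 in estrus and 0.0955 in diestrus. Anchor positions in the deposited files are of another kind (other: bases), given here 1-based on mm10.

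Genes came from RefSeq (GRCm38.p6, the assembly mm10 names). Strand and promoters were read from the RefSeq promoter table for 34 of 55 genes. Loops were paired when mutually nearest with both anchors within 10 kb, counted as the gap between nearest anchor edges. Their log2 ratios of strength had the median of all pairs subtracted. Shares have Clopper-Pearson intervals, contacts exact Poisson ones, ratios exact conditional ones (expected contacts taken as exact) and medians ones from order statistics, all at 95%. The 55 genes, the list of 93 relatives and the settings were chosen with earlier results of these data known. Genes were described in full if they had at least 6 loops in a library or differed by at least 2, or held the 5 most extreme ratios in a direction (pairs with at least 20 contacts) or the 5 longest loops. Other members are named as examples. Other settings tried were gene ends strictly inside an anchor or within 10 kb, any base of the gene, q-values under 0.01, a diestrus list shortened to the length of the estrus list, other tolerances and desert sizes, and nesting without a common anchor. Python 3.11.15, pandas 2.3.3 and scipy 1.17.1 were used, and the counting was tested on simulated lists. No genome sequence was used here, so anchors were not searched for motifs. A few loops and related genes are not reported here.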

Additional observations from a re-analysis of the deposited data

How the results depend on the processing

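Of 80 values obtained for 13 results under 12 other settings, 72 lay within the main value's 95% interval or, for numbers of loops and genes, within 1.5 times the main number, and 8 did not. Within that margin, the genes with more loops numbered 19 in estrus and 20 in diestrus with the diestrus list shortened to equal length, against 14 in estrus and 26 in diestrus otherwise. The loops of the factor genes ran from 165 in estrus and 181 in diestrus with gene ends inside an anchor to 244 in estrus and 272 in diestrus with any base of the gene counted. With only identical bins counted as the same loop, 71.4% of the estrus loops at the factor genes and 63.9% of the diestrus loops had a counterpart. The share ending in a desert was 44.7% in estrus and 45.7% in diestrus with gaps of at least 250 kb, and 7.77% in estrus and 6.96% in diestrus with gaps of at least 1 Mb, since fewer gaps reach that size. Allowing no common anchor left 14.6% of estrus loops and 20% of diestrus loops nested. No paired analysis was possible because each stage had 1 library and no test was made. The depth of each list limits which loops were called: the fewest contacts at a listed loop were 13 and loops with few contacts, such as the longest ones at Ebf2 and Tbx18, have wide counting intervals.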
